A study of Mus musculus with 10 samples.

Results

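Alternatively activated macrophage genes were examined in bone marrow (BM) of mice that carried hematopoietic stem cells (HSCs) from vitamin D-deficient, VD(−), or vitamin D-sufficient, VD(+), embryos. The members were 8 genes, Arg1, Retnla, Mgl2, Clec10a, Il4ra, Pdcd1lg2, Tgm2 and Il10, of 19938 genes that probe sets with 1 annotated gene represent. Each member had 1 such probe set. The list was drawn up by gene function, with earlier results of these data known. The groups were 5 arrays of VD(−) and 5 arrays of VD(+) HSC recipients, with RNA of single samples on 3 arrays and of pools on 2 in each group. Donor cells were fetal liver HSCs of C57BL6 embryos whose dams ate a vitamin D-deficient or a vitamin D-sufficient diet, and all recipients were lethally irradiated, vitamin D-sufficient C57BL6 mice of both sexes. The labels give an age of 8 weeks. The time between transplant and collection is stated differently in the study's text and in a legend. The study's methods describe donor cells from mixed pools of male and female embryos. No separation of donor from residual recipient cells is described, and whether the pooled RNA includes the single mice is not stated. The p-values therefore measure the spread between these arrays, which may be technical in part.

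Alternative activation is the state that macrophages take on under interleukin 4 (IL-4) and interleukin 13. Both cytokines signal through the IL-4 receptor alpha chain and the transcription factor STAT6, which switches on genes of arginine breakdown, lectin receptors, secreted resistin-like proteins and matrix crosslinking. The state is known for roles in helminth defence, tissue repair and insulin-sensitive adipose tissue, and it is set against the proinflammatory state induced by interferon gamma and bacterial products. In whole BM the same genes can also be read from dendritic cells, eosinophils, endothelial cells and stroma, and more cells of a type cannot be told apart from more RNA per cell.

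The labels name both BM and BM macrophages. All 13 measured markers of tissue macrophages, all 10 of neutrophils and all 7 of B cells lay above the level that 95% of olfactory and vomeronasal receptor genes stay under, so the arrays carried RNA of several lineages. These 1194 receptor genes, taken as silent in marrow, had a median log2 signal of 2.41 and a 95th percentile of 3.92, and they serve as a guide to the low end of the scale, since probes differ in affinity. The mean log2 signal of 3 genes of the Y chromosome, Uty, Kdm5d and Eif2s3y, was 5.31 to 6.80 on 3 arrays, VD(−) replicate 1 and both VD(−) pools, and 2.25 to 2.56 on the other 7. These 7 included every VD(+) array, although the methods describe mixed donor pools of both sexes, and the reason was not tested. Y-linked signal was thus unequal between the groups, and differences without these 3 arrays are given for each member and for the pathway genes named that they moved by over 1.5 times, turned in sign or moved across a nominal p of 0.05.

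Tgm2 was the member with the clearest difference, and it was higher in VD(−) HSC recipient BM at a nominal p, though not after adjustment over all probe sets. It encodes transglutaminase 2, which crosslinks proteins and is a conserved marker of IL-4-treated macrophages. Il4ra, which carries the IL-4 signal into the cell, was well measured and showed no difference beyond the spread between arrays. Mgl2, a galactose-binding lectin, had a larger mean difference than Tgm2 but varied widely inside both groups. Retnla, Il10 and Pdcd1lg2 were within the range of the silent receptor genes. Over all probe sets 0.118% passed an adjusted p under 0.05 in either direction, and 0 of the 8 members did (limma, smallest adjusted p = 0.330). At a nominal p under 0.05 (limma) 1 of 8 members was higher in VD(−), where 4.05% of all genes were, and 0 were lower, where 2.95% of all genes were. Of the 8, 6 had a difference above 0, with a median of 0.098 on the log2 scale, and 50.3% of all genes were above 0, with a median of 0.0010.

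**Figure D1:**
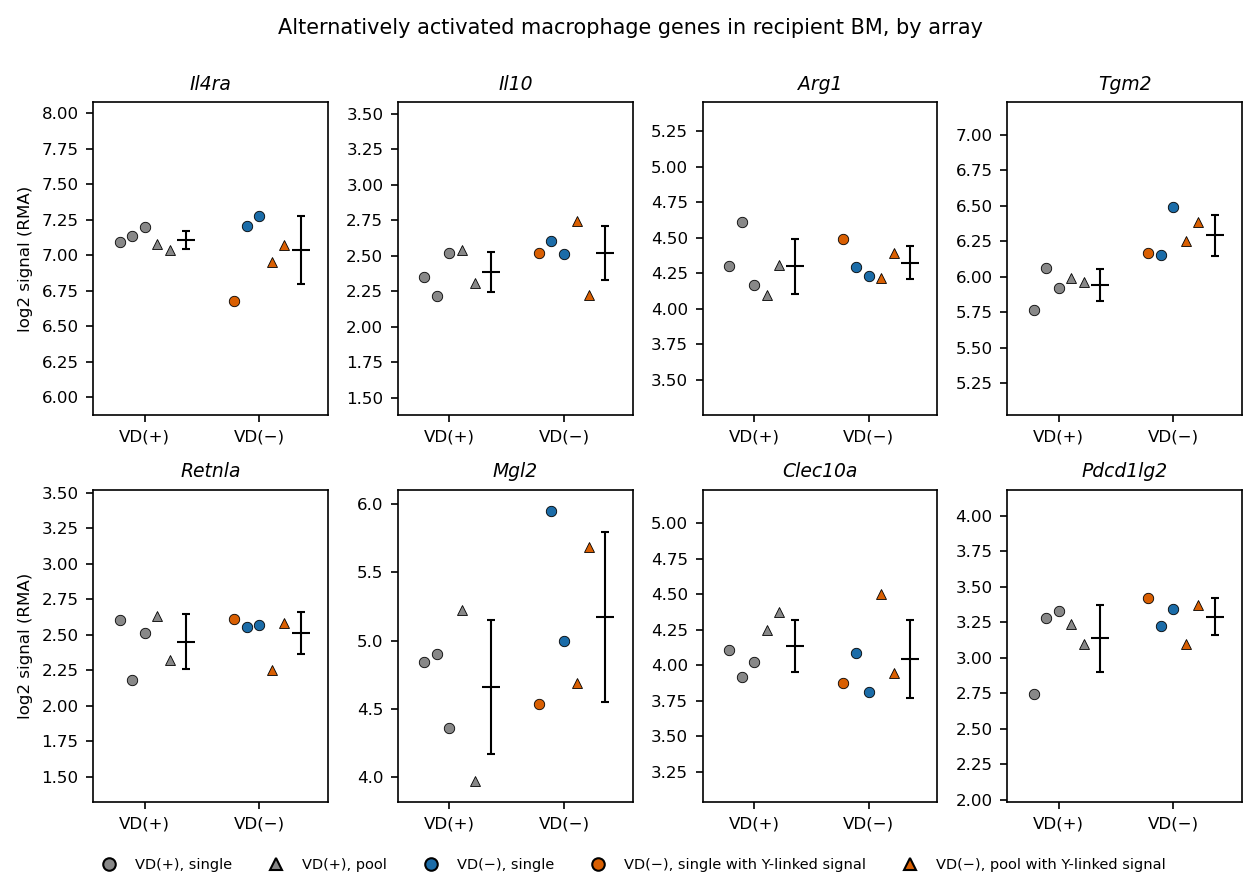
Log2 signal (vertical axis) of the 8 members on each array, with VD(+) in grey and VD(−) in blue or, where Y-linked signal was present, orange; circles are single samples, triangles are pools, and bars are mean ± SD of 5 arrays. Each axis spans at least 2.2 log2 units. The Tgm2 arrays of VD(−) lie at 6.16 or higher and those of VD(+) at 6.07 or lower, and in the other 7 panels the groups overlap.

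The receptor comes first in the pathway. Il4ra had log2 signals of 7.10, 7.13 and 7.20 in the single samples and 7.08 and 7.04 in the pools of VD(+). In VD(−) it had 6.68, 7.21 and 7.28 in the single samples and 6.95 and 7.08 in the pools. VD(−) replicate 1 was the lowest of all arrays, VD(−) replicates 2 and 3 were the highest, and the groups overlapped. The means were 7.04 ± 0.24 (SD, n = 5) in VD(−) and 7.11 ± 0.062 (SD, n = 5) in VD(+). The difference was −0.071 (SE 0.11, 95% interval −0.31 to 0.17, adjusted p = 0.922 from limma). The 3 VD(−) arrays with Y-linked signal lay between 6.68 and 7.08 and the other 2 at 7.21 and 7.28, and without these 3 arrays the difference was 0.13 (SE 0.088, adjusted p = 0.912 from limma), on the other side of 0.

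Il10 encodes the anti-inflammatory cytokine interleukin 10, which marks regulatory macrophages and which B and T cells also make. Its log2 signals were 2.35, 2.22 and 2.52 in the single samples and 2.54 and 2.31 in the pools of VD(+), and 2.52, 2.61, 2.51, 2.75 and 2.23 in the same order in VD(−). The groups overlapped, and the lowest and the highest VD(−) arrays were both pools. Of the silent receptor genes, 47.7% had a higher mean than Il10, so that no level above the low end of the scale was shown. The difference was 0.13 (SE 0.10, 95% interval −0.097 to 0.36, adjusted p = 0.823 from limma). It was 0.17 without the 3 arrays with Y-linked signal. Left without VD(−) pool 2, the lowest VD(−) array, it was 0.21 with a nominal p of 0.0489.

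Arg1 encodes arginase 1, which turns arginine into ornithine and urea and thereby takes it from nitric oxide synthesis. It had log2 signals of 4.30, 4.61, 4.17, 4.10 and 4.31 in VD(+) replicates 1 to 3 and pools 1 and 2, and of 4.49, 4.30, 4.23, 4.22 and 4.39 in those of VD(−). All 5 VD(−) arrays lay inside the VD(+) range. The difference was 0.028 (SE 0.10, 95% interval −0.20 to 0.25, adjusted p = 0.973 from limma), and −0.034 without the 3 arrays with Y-linked signal, on the other side of 0. Of the silent receptor genes, 2.51% had a higher mean.

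Tgm2 had log2 signals of 5.77, 6.07 and 5.92 in the single samples of VD(+) and of 5.99 and 5.96 in its pools. The VD(−) single samples were at 6.17, 6.16 and 6.49 and the pools at 6.26 and 6.39. Every VD(−) array was above every VD(+) array, a pattern that 1.09% of all genes had. The means were 6.29 ± 0.15 (SD, n = 5) and 5.94 ± 0.11 (SD, n = 5). The difference of 0.35 (SE 0.087, 95% interval 0.16 to 0.54) is a ratio of 1.27 and had a nominal p of 0.00218 and an adjusted p of 0.330 from limma. It met both thresholds that the study set for a higher gene, on the nominal p and on the ratio, and 2.35% of all genes did. The exact permutation test of 5 arrays against 5, two-sided, gave p = 0.00794, the smallest it can give. The difference was 0.35 in the single samples alone, 0.34 in the pools alone and 0.38 without the 3 arrays with Y-linked signal, and it lay between 0.30 and 0.38 with any 1 array left out.

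Among secreted products, Retnla encodes the resistin-like protein RELMα (FIZZ1), one of the strongest IL-4-induced transcripts of mouse macrophages. Its log2 signals were 2.61, 2.18, 2.51, 2.63 and 2.32 in VD(+) replicates 1 to 3 and pools 1 and 2, and 2.61, 2.55, 2.57, 2.25 and 2.58 in those of VD(−). The groups overlapped, with 4 VD(−) arrays close together and VD(−) pool 1 below them. The mean was lower than that of 46.1% of the silent receptor genes. The difference was 0.061 (SE 0.11, 95% interval −0.17 to 0.30, adjusted p = 0.935 from limma), and in the pools alone it was −0.061. Without the 3 arrays with Y-linked signal it was 0.11 (SE 0.14).

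The lectins Mgl2 (CD301b) and Clec10a (MGL1, CD301a) are encoded by related, neighbouring genes and bind galactose-type sugars on macrophages and dendritic cells. Mgl2 had log2 signals of 4.84, 4.90, 4.36, 5.22 and 3.97 in VD(+) replicates 1 to 3 and pools 1 and 2. In VD(−) it had 4.54, 5.95, 4.999, 4.69 and 5.69 in that order. VD(−) replicate 2 and pool 2 stood above every VD(+) array, whereas the other 3 VD(−) arrays lay inside the VD(+) range. The difference was 0.51 (SE 0.31, 95% interval −0.17 to 1.20, adjusted p = 0.785 from limma), with an SD of 0.62 in VD(−) and 0.49 in VD(+) (n = 5 each). Its spread within groups exceeded that of 99.5% of the genes whose mean lay within 0.5 of its own on the log2 scale. Without VD(−) replicate 2 the difference was 0.32 (adjusted p = 0.867 from limma). With a covariate for sex signal, the Y-linked mean less the Xist value, it was 0.93, with a nominal p of 0.0277 and an adjusted p of 0.614 from limma. Y-linked signal was present on VD(−) arrays alone, so the covariate's slope rests mainly on that group and cannot fully separate sex from group. Without the 3 arrays with Y-linked signal the Mgl2 difference was 0.82 (adjusted p = 0.831 from limma).

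Clec10a had log2 signals of 4.11, 3.92, 4.02, 4.25 and 4.38 in VD(+) and of 3.88, 4.09, 3.81, 4.51 and 3.95 in VD(−), in the same order. The groups overlapped, and VD(−) pool 1 was the highest of the 10 arrays while VD(−) replicate 3 was the lowest. The difference was −0.089 (SE 0.14, 95% interval −0.39 to 0.22, adjusted p = 0.925 from limma). It was −0.20 without VD(−) pool 1 (adjusted p = 0.821 from limma) and −0.19 without the 3 arrays with Y-linked signal (adjusted p = 0.931 from limma). Of the silent receptor genes, 3.685% had a higher mean than Clec10a.

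Pdcd1lg2 encodes PD-L2, a ligand of the T cell inhibitory receptor PD-1 that IL-4 induces on macrophages and dendritic cells. Its log2 signals were 2.75, 3.28, 3.33, 3.24 and 3.10 in VD(+) and 3.42, 3.23, 3.34, 3.10 and 3.37 in VD(−), in the same order. Apart from VD(+) replicate 1, which was the lowest, the arrays of both groups lay between 3.10 and 3.42. The difference was 0.15 (SE 0.12, 95% interval −0.10 to 0.41, adjusted p = 0.823 from limma), and it was 0.054 without VD(+) replicate 1 and 0.14 without the 3 arrays with Y-linked signal. Of the silent receptor genes, 15.2% had a higher mean.

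Across the 28 pairs of the 8 members Pearson's r over the 10 arrays ran from −0.58 to 0.60, with a median of 0.028. This describes arrays that share their normalization and their groups. Of the members 3, Retnla, Il10 and Pdcd1lg2, were in the range of the silent receptor genes, where array noise can lower r. The low median therefore cannot show that the better measured members vary apart.

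Promoter sequence is shown because STAT6 relays the IL-4 signal and prefers an inverted repeat with 4 bases between its arms. Control of each member by STAT6 was not tested. RefSeq promoters of GRCm38.p6, from 250 bases before to 50 after the start of transcription, were at hand for 4 members, Retnla, Pdcd1lg2, Il4ra and Mgl2. The motif searched, TTC and GAA with 4 bases of any kind between them, reads alike on both strands and was present in the windows of Retnla and Pdcd1lg2 and in 6.95% of all 32851 promoter windows. The shorter form with 3 bases between the same arms was in none of the 4 and in 8.30% of all windows. Counted in bases from the start of transcription, the match began at −145 in Retnla and at −82 in Pdcd1lg2. Capitals mark the match, with 10 bases on each side, on the plus strand.
Retnla, chr16:48842454-48842483: agaatcataaTTCACAAGAAattgctaaac
Pdcd1lg2, chr19:29410827-29410856: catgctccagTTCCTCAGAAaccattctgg
Both genes were near the low end of the scale on these arrays, and binding of STAT6 was not measured.

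The pathway around the members was read from 6 lists of 65 genes in all, counting each gene once. Of these genes 8 (12.3%) were higher in VD(−) at a nominal p under 0.05 and 1 (1.54%) was lower, beside the 4.05% and 2.95% of all genes, and 0 passed an adjusted p under 0.05 (limma, smallest adjusted p = 0.308). The median difference of the 65 was −0.0037. Without the 3 arrays with Y-linked signal 7 of the 65 (10.8%) passed a nominal p upward and 2 (3.08%) downward, beside 3.08% and 2.64% of all genes, and 0 passed adjustment (limma, smallest adjusted p = 0.515). Of the 8 higher genes 5 were among these 7, and 23 of the 65 differences changed sign. The lists were chosen with results of these data known, and the counts describe them without a test.

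**Figure D2:**
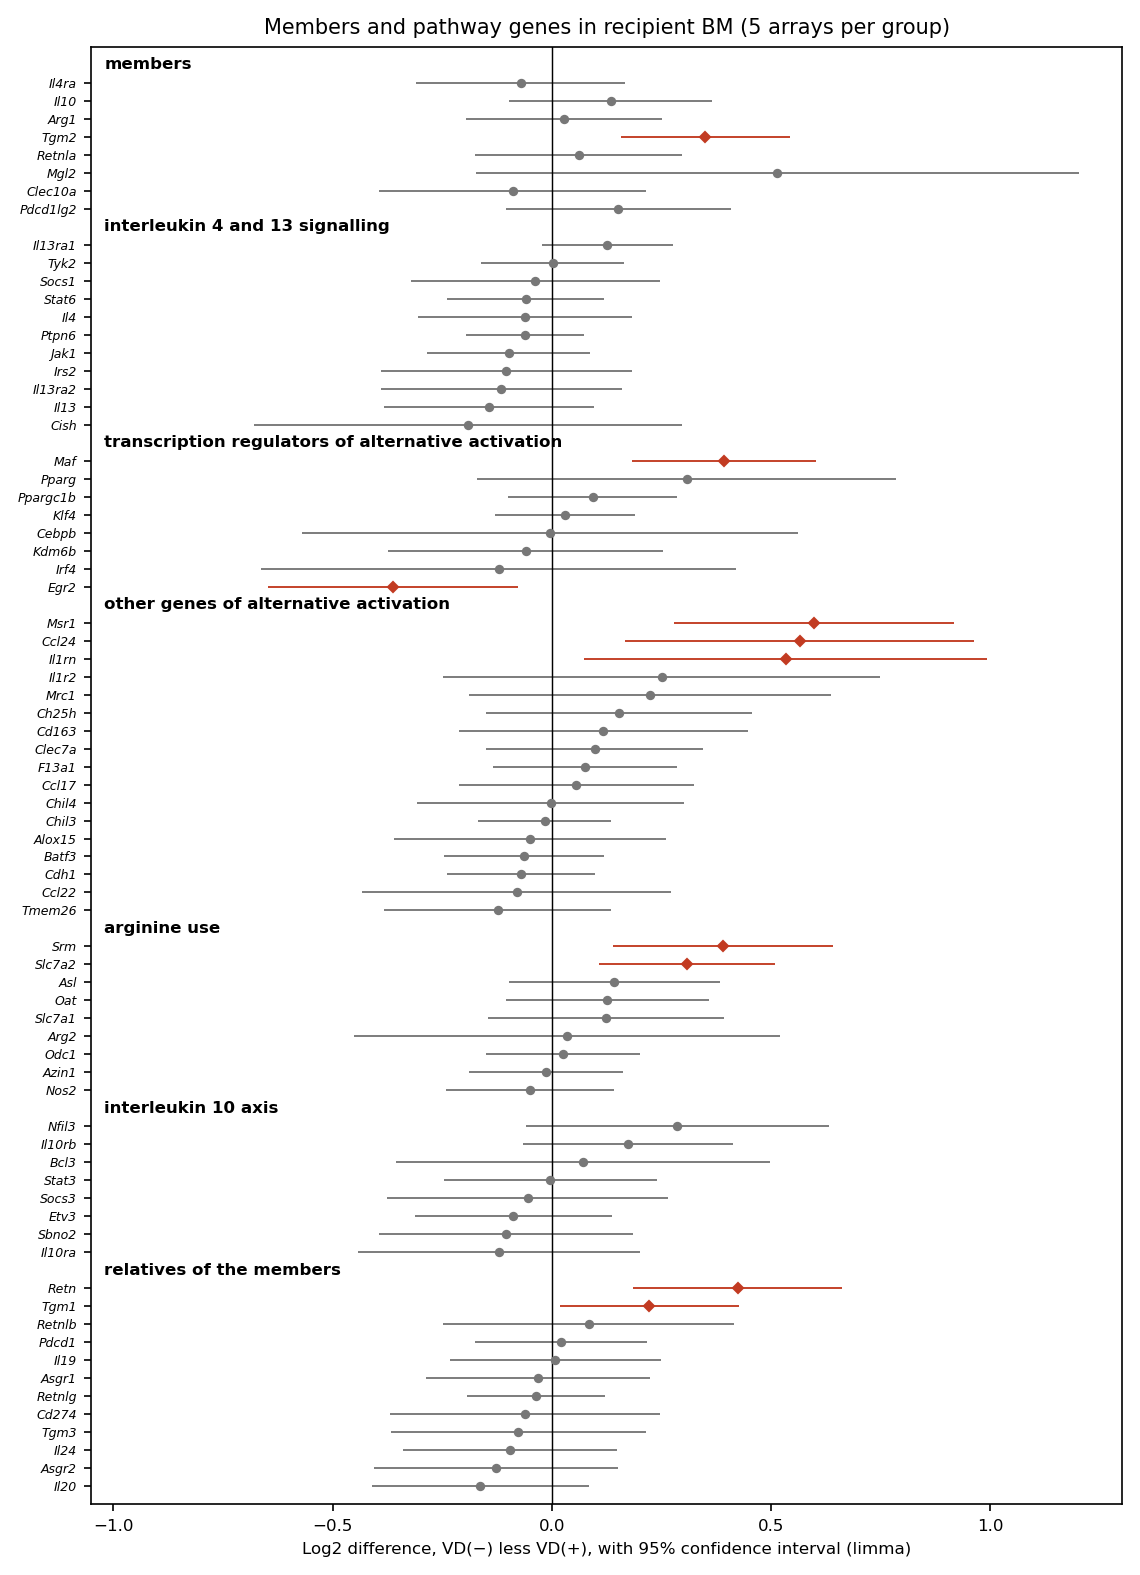
Log2 difference, VD(−) less VD(+), on the horizontal axis for the 8 members and the 65 pathway genes, with bars for the 95% confidence interval of limma (5 arrays per group); Jak1 and Tyk2, which belong to 2 lists, are drawn once. Red diamonds had a nominal p under 0.05 and grey circles did not. Tgm2 at 0.35 is the only member whose interval leaves out 0, and Msr1 stands highest of the pathway genes at 0.60.

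In IL-4 and interleukin 13 signalling, 11 of 13 listed genes were measured, and none had a nominal p under 0.05 in either direction (smallest adjusted p = 0.747 from limma), the median difference being −0.062. Il4 itself had a mean of 4.34 ± 0.19 (SD, n = 5) in VD(−) against 4.40 ± 0.17 (SD, n = 5) in VD(+), a difference of −0.061 (SE 0.11), and Il13 differed by −0.14 (SE 0.11). Stat6 had −0.059 (SE 0.081), the kinase gene Jak1 −0.098 (SE 0.084), and Ptpn6, which encodes the phosphatase SHP-1, −0.062 (SE 0.061). Il13ra1, the chain that pairs with the IL-4 receptor alpha chain on macrophages, had the smallest nominal p of the list (0.0887 from limma) with a difference of 0.13 (SE 0.067). Without the 3 arrays with Y-linked signal Stat6 had 0.060 and Jak1 0.0040, both on the other side of 0, Il4 had −0.23, Il13 −0.050 and Ptpn6 −0.023, and none had a nominal p under 0.05. Il2rg and Jak3 had no probe set that lists them alone and were not used.

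Of 8 transcription regulators of alternative activation, 1 was higher and 1 lower at a nominal p. Maf, a macrophage transcription factor that drives Il10, had log2 signals of 5.22 to 5.57 in VD(+) and of 5.69 to 6.04 in VD(−), with no overlap. Its difference was 0.39 (SE 0.095, adjusted p = 0.308 from limma), 0.34 without the 3 arrays with Y-linked signal. Egr2, an early growth response factor of the IL-4 response, had −0.36 (SE 0.13, adjusted p = 0.598 from limma), with overlapping groups, and −0.26 without these arrays, no longer at a nominal p under 0.05. Pparg, the fatty acid receptor that supports the alternative state, had 0.31 (SE 0.22). Its log2 signals were 6.98, 7.46 and 6.71 on the VD(−) arrays with Y-linked signal and 6.42 and 6.54 on the others of VD(−). Which cells gave the Pparg signal was not tested. Cebpb, which activates Arg1, had −0.0042 (SE 0.26). Both genes changed sign without the arrays with Y-linked signal, Pparg to −0.033 and Cebpb to 0.38. Irf4, a regulator downstream of IL-4 that is named here after its values were seen, then had −0.62 at a nominal p under 0.05, against −0.12 (SE 0.25) with all arrays.

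Of 17 measured genes that are induced in alternative activation but are not members, 3 passed a nominal p upward and 0 downward, the median difference being 0.076. Msr1, the class A scavenger receptor, had log2 signals of 5.75 to 6.61 in VD(+) and of 6.67 to 7.08 in VD(−), without overlap. Its difference was 0.60 (SE 0.14, adjusted p = 0.308 from limma), 0.65 without the arrays with Y-linked signal. Ccl24, the eosinophil chemokine eotaxin-2, had 0.57 (SE 0.18, adjusted p = 0.542 from limma) and 0.26 without these arrays, no longer at a nominal p under 0.05. Il1rn, which encodes the interleukin 1 receptor antagonist, had 0.53 (SE 0.21, adjusted p = 0.644 from limma) and 0.89 without them. Chil3 (Ym1), a chitinase-like protein that marrow neutrophil precursors also make, had a mean of 12.27 ± 0.11 (SD, n = 5) in VD(−) against 12.29 ± 0.052 (SD, n = 5) in VD(+), a difference of −0.016 with a 95% interval of −0.17 to 0.14, and 0.051 without the arrays with Y-linked signal. Mrc1, the mannose receptor CD206, had 0.22 (SE 0.19, adjusted p = 0.833 from limma) and −0.054 without the arrays with Y-linked signal. F13a1, the coagulation factor XIII A chain, had 0.076 (SE 0.095) and 0.18 without these arrays. Tmem26, named after its values were seen, had −0.12 (SE 0.12) with all arrays and −0.34, at a nominal p under 0.05, without these arrays.

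Around Arg1, 2 of 9 measured genes of arginine use passed a nominal p upward and 0 downward, the median difference being 0.12. Slc7a2, the cationic amino acid transporter that IL-4 induces, had log2 signals of 4.35 to 4.66 in VD(+) and of 4.61 to 4.99 in VD(−), with overlap, and a difference of 0.31 (SE 0.091, adjusted p = 0.5003 from limma). Srm, spermidine synthase, had 0.39 (SE 0.11, adjusted p = 0.482 from limma) with overlap, and Odc1, which makes putrescine from ornithine, 0.026 (SE 0.079). Asl, which makes arginine, had 0.14 (SE 0.11), and Azin1, an inhibitor of antizyme, −0.014 (SE 0.080). Arg2, the mitochondrial arginase, had 0.035 (SE 0.22) with all arrays but 0.475 without the 3 arrays with Y-linked signal, then at a nominal p under 0.05. Nos2, the inducible nitric oxide synthase of the proinflammatory state, had −0.050 (SE 0.087) and 0.074 without these arrays. Without them Asl had 0.013, Odc1 0.015, Azin1 0.044, Slc7a2 0.38 and Srm 0.54, the last pair again at a nominal p under 0.05. Ass1 and Sms share their probe sets with other genes and were not used.

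In the interleukin 10 axis no gene of 10 had a nominal p under 0.05 with all arrays (smallest adjusted p = 0.751 from limma), the median difference being −0.029. The smallest nominal p were those of Nfil3, an interleukin 10-induced repressor, with 0.29 (SE 0.16), of the receptor chain gene Il10rb with 0.17 (SE 0.11) and of Jak1. Stat3, which relays the interleukin 10 signal, had −0.0037 (SE 0.11). Without the 3 arrays with Y-linked signal Nfil3 had 0.56 at a nominal p under 0.05, Il10rb had 0.31 and Stat3 had 0.18. In the single samples alone Il10rb had 0.34, also at a nominal p under 0.05, and in the pools alone −0.068.

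Of 12 relatives of the members, 2 passed a nominal p upward and 0 downward, and 6 of the 12 lay in the range of the silent receptor genes. Retn, the gene of resistin and a relative of Retnla, had log2 signals of 4.41 to 4.68 in VD(+) and of 4.76 to 5.23 in VD(−), without overlap. Its difference was 0.42 (SE 0.11, adjusted p = 0.355 from limma), but 0.20 without the 3 arrays with Y-linked signal, which were the highest, and then no longer at a nominal p under 0.05. The stromal marker Adipoq, named after its values were seen, had 9.04, 9.43 and 8.64 on these 3 arrays and 7.77 and 8.26 on the others of VD(−). Lepr, another stromal marker, did not split in this way. Which cells gave the Retn signal was not tested. Retnlg, the relative made by neutrophils, had a difference of −0.035 (SE 0.071), and 0.046 without the arrays with Y-linked signal. Tgm1, transglutaminase 1, had 0.22 (SE 0.093, adjusted p = 0.671 from limma) and 0.21 without these arrays, no longer at a nominal p under 0.05. Cd274, which encodes the other PD-1 ligand PD-L1, had −0.061 (SE 0.14), and Il20, a cytokine gene near Il10, −0.16 (SE 0.11) within the range of the silent receptor genes. Without the arrays with Y-linked signal they had −0.11 and −0.26.

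**Figure D3:**
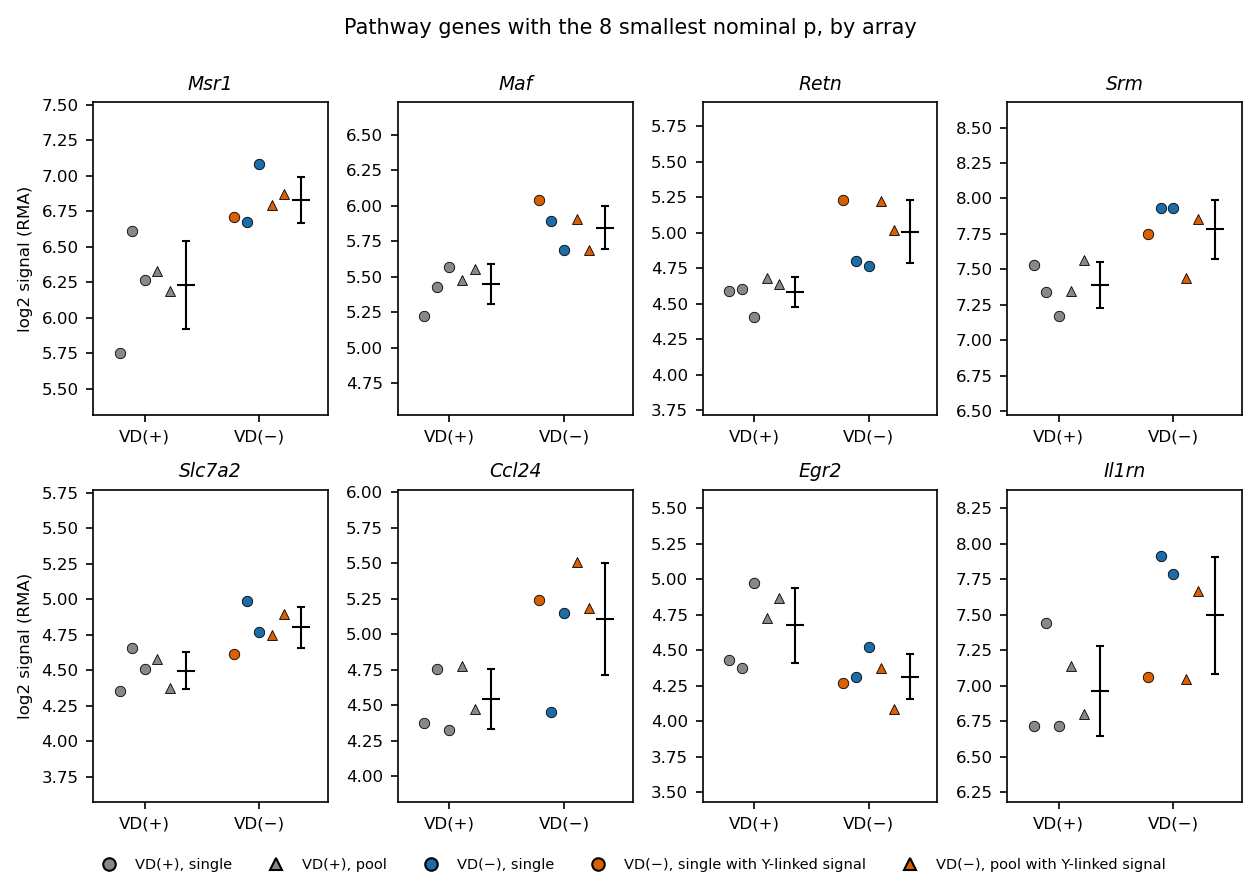
Log2 signal (vertical axis) on each array of the 8 pathway genes with the smallest nominal p, drawn as for the members: VD(+) grey, VD(−) blue or, with Y-linked signal, orange, circles single samples, triangles pools, bars mean ± SD of 5 arrays. Msr1, Maf and Retn do not overlap between the groups, and in the Retn panel the 3 orange VD(−) arrays, at 5.02 to 5.23, lie above the 2 blue ones at 4.76 and 4.80.

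Over the 10 arrays the genes whose pattern was most like a member's were taken as the 3 with the highest Pearson's r among 10154 or 10155 annotated genes above the median level, as a description. For Tgm2 they were the cochaperone gene Fkbp4 (r = 0.98), the DNA polymerase gene Polb (r = 0.97) and Msr1 (r = 0.96), with 0.93, 0.94 and 0.88 once group means were removed. Fkbp4 itself had a difference of 0.25 (adjusted p = 0.465 from limma) and Polb of 0.22 (adjusted p = 0.580 from limma). Since both were picked for likeness to Tgm2, whose groups do not overlap, such differences follow from the choice. Picking the highest r over the same arrays also favours a high r within groups. By the same search Retnla, in the range of the silent receptor genes, had r = 0.94 with Lrrc3 and 0.94 once group means were removed. For Mgl2 they were Leprotl1 (r = 0.91), Pdia6 (r = 0.90) and Cep85l (r = 0.89). For Il4ra they were Cmah, Klf3 and Ier3, with r from 0.91 to 0.93. For Arg1 they were Jph2 (r = 0.91), Ubxn8 and Kif16b, and for Clec10a Gid8 (r = 0.89), Fen1 and Nanp. For the members in the range of the silent receptor genes they were Lrrc3, Ccdc17 and Pop7 (Retnla), Dhrsx, Zup1 and Zbtb38 (Pdcd1lg2) and Cog3, Polr1c and Fam83d (Il10), with r from 0.83 to 0.97.

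Markers of cells that could hold the members' RNA were read beside them. Of all genes 50.3% had a difference above 0, and 4.05% passed a nominal p upward and 2.95% downward. Of 13 markers of tissue macrophages 12 had a difference above 0, of which 3 passed a nominal p, and their mean log2 signal per array was 7.39 to 7.82 in VD(−) and 6.995 to 7.49 in VD(+). The VD(−) arrays with Y-linked signal were at 7.54, 7.82 and 7.445, and the other 2 at 7.42 and 7.39. Only 7.54 and 7.82 lay above the VD(+) range. Of 5 measured markers of classical monocytes all had a difference above 0, of which 2 passed a nominal p, with array means of 8.07 to 8.23 in VD(−) and 7.78 to 8.13 in VD(+). Here the VD(−) arrays with Y-linked signal were at 8.11, 8.07 and 8.20, and those without it were higher, at 8.23 and 8.22. No marker of either list was in the range of the silent receptor genes. Pearson's r of Tgm2 with the array means was 0.48 for tissue macrophages and 0.77 for classical monocytes, and that of Mgl2 was −0.18 and 0.77 (10 arrays each). Mgl2 also had 0.66 with neutrophil, 0.58 with basophil and mast cell, 0.26 with eosinophil, −0.35 with stromal, −0.58 with endothelial, −0.62 with dendritic cell and −0.75 with B cell markers. Tgm2 had −0.51 with B cell and 0.40 with stromal markers and between −0.23 and 0.12 with the other 5 lists. Other possible sources of Tgm2 were added after its values were seen. Of 8 endothelial markers 4 were above 0 and 0 passed a nominal p, with array means of 5.67 to 5.99 in VD(−) and 5.60 to 5.86 in VD(+), and of 8 stromal markers 8 were above 0, of which 2 passed a nominal p, with array means of 6.99 to 7.67 and 6.85 to 7.30. The stromal means of the VD(−) arrays with Y-linked signal were 7.35, 7.67 and 7.25, and those of the other 2 were 6.99 and 7.07. Only 7.35 and 7.67 lay above the VD(+) range. Of 12 dendritic cell markers 3 were above 0, and 1 passed a nominal p in each direction, with array means of 6.26 to 6.53 in VD(−) and 6.34 to 6.56 in VD(+), and 1 (Xcr1) was in the range of the silent genes. Of 6 eosinophil markers 4 were above 0, with array means of 7.59 to 8.15 and 7.47 to 7.90. Of 8 basophil and mast cell markers 3 were above 0, of which 1 passed a nominal p, with array means of 5.83 to 6.10 and 5.93 to 6.17, and Cma1 was in the range of the silent genes. Of 10 neutrophil markers 3 were above 0 and 0 passed a nominal p, with array means of 11.52 to 11.92 in VD(−) and 11.62 to 11.83 in VD(+). Of 7 B cell markers 0 were above 0 and 4 passed a nominal p downward, with array means of 6.86 to 7.21 and 7.20 to 7.62. Of these Fcer2a, the gene of the IgE receptor CD23 and named after its values were seen, passed adjustment, with −0.58 (SE 0.081, adjusted p = 0.0305 from limma) and no overlap between the groups. The part of these cells in the differences of Tgm2 and Mgl2 was not tested.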

How the data were processed

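Total RNA of recipient BM was amplified, labelled with biotin and hybridised to a whole-transcript mouse gene array, as the annotation of the probe sets shows, whereas the methods name a miRNA array. The authors deposited log2 values made in Partek with RMA, which corrects background, equalises array distributions and summarises probes, so a shift in total RNA is removed. For genome build and filters: not given in the sources used here. Array medians lay between 4.74 and 4.80, and the number of arrays limits the precision. Gene names came from the array annotation, in which 21789 of 35556 probe sets list 1 gene. For each gene the probe set with the highest mean was used.

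Groups were compared with limma 3.58.1 in R 4.3.3 on all 35556 probe sets, without covariates, p-values being adjusted over all probe sets by Benjamini-Hochberg, and single members with an exact permutation test. Differences are VD(−) less VD(+) on the log2 scale, and a nominal p is unadjusted. The code was tested on simulated data. Members, lists, markers and alternatives were chosen with earlier results of these data known. Named were all members, of each pathway list the 3 genes with the smallest nominal p and the 2 with the highest mean, a few pathway genes set in advance (Il4, Il13, Stat6, Chil3, Mrc1, Nos2, Arg2, Retnlg and Cd274), and the 3 genes most like a member. Gene models, receptor families of smell, small RNAs and pseudogenes were left out of the last. Alternatives were the t-test of the methods, dim probe sets left out, cyclic loess, array weights, trended and robust spread, pool as a covariate, singles or pools alone, a block for the replicate number, averaged probe sets of a gene, a sex covariate (the Y-linked mean less the Xist value), the arrays without that signal and each array left out. Added later were probe sets with 1 gene alone, the overlap of groups after cyclic loess and the pathway counts on the arrays without Y-linked signal.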

Additional observations from a re-analysis of the deposited data

Results flagged for a closer look

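Retnla in VD(−) pool 1, at a log2 signal of 2.25, lay apart from the other 4 VD(−) arrays, which were at 2.55 to 2.61, by more than Dixon's criterion allows for 5 values. Of 16 groups of 5 arrays examined over the members 1 was marked in this way, and chance marks about 5% of groups. All Retnla values were near the low end of the scale.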

How the results depend on the processing

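Of 179 values of single members under 23 alternatives, 168 kept their direction and their side of an adjusted p under 0.05, and 11 changed sign. The latter concern differences near 0. Arg1 had −0.023 in the single samples alone, −0.017 with the sex covariate (the Y-linked mean less the Xist value), −0.034 on the arrays without Y-linked signal, and −0.022 to 0.11 with 1 array left out. Retnla had −0.061 in the pools alone and −0.0055 to 0.13 with 1 array left out, negative without VD(+) replicate 2. Il4ra had 0.15 with that covariate, 0.13 on the arrays without Y-linked signal and −0.13 to 0.019 with 1 array left out, positive without VD(−) replicate 1. Tgm2 kept a nominal p under 0.05 in all 23, with adjusted p from 0.180 to 0.985. Its groups also did not overlap after cyclic loess. That check of overlap was added after seeing the data, as was testing probe sets with 1 gene alone. With the sex covariate, whose slope rests mainly on the VD(−) arrays, the number of members at a nominal p was 2 (Tgm2 and Mgl2). That number was 1 to 2 with 1 array left out, 2 without VD(−) pool 2 (Tgm2 and Il10). The median of the members was 0.35 among brighter probe sets, where 3 members were left. Same-numbered arrays deviated from their group means with correlations of −0.063 to 0.13, and 1 of 5 correlated best with its own number. Pairing by number was not seen, and these few arrays cannot show that it is absent. With the replicate block Tgm2 had 0.35 (adjusted p = 0.527), and the count of members at a nominal p did not change. For Retnla, Il10 and Pdcd1lg2 the low signal limits what a difference can show. Clec10a, at a mean of 4.09, was little above the 95th percentile of the silent receptor genes at 3.92.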
